A study of Mus musculus with 24 samples.

Results

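Fam107a, Ptk2b and Kank1 are followed here together with genes of focal adhesions, the sites where a cell's actin skeleton is tied to the matrix outside it. The 10 genes were taken by name from 38920 measured gene entries. They are the actin-associated genes Fam107a and Fam107b, the adhesion kinases Ptk2b and Ptk2, the kinase Src, the cortical scaffold Kank1, and the adhesion proteins Pxn, Vcl, Zyx and Tln1. Fam107a, Ptk2b and Kank1 were picked because their RNA rose with dexamethasone, so their responses are described without a test. The other 7 were picked for their function and are tested. All 10 passed the filter on low values in each of the 4 treatment comparisons.

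RNA was sequenced from mouse neural progenitor/stem cells grown as neurospheres, floating aggregates of dividing progenitors, from cortex or hypothalamus of embryonic day 14.5 fetuses. At passage 3 the cells received 100 nM dexamethasone, a synthetic glucocorticoid, or an equal volume of its ethanol vehicle for 4 hours. There were 8 groups of 3 libraries: female cortex, male cortex, female hypothalamus and male hypothalamus, each with vehicle or with dexamethasone. The labels name no strain or genetic change, and do not say whether a biological replicate was an embryo, a litter or a pool. The p-values therefore measure the spread between these libraries.

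Libraries held 16390184 to 20940035 reads in genes for cortex and 16040280 to 25489304 for hypothalamus. The 8 progenitor markers, among them Nes and Sox2, summed to at least 4820 RPM (reads scaled to library size) in every library, and the 7 microglial markers to at most 1.1 RPM. The regions also differed in library make-up: mt-Rnr2, a mitochondrial rRNA, made up 1.094 to 2.669% of cortex reads and 21.33 to 39.96% of hypothalamus reads. Region and library preparation cannot be told apart. Both male hypothalamus libraries with replicate number 2 held the X-inactivation RNA Xist, at 26.4 RPM with vehicle and 30.1 RPM with dexamethasone, against at most 0.768 RPM in the other male libraries. Female cortex replicate 1 stood apart from replicates 2 and 3. Its vehicle library had 3.95 RPM of the astrocyte gene Gfap, against 392 and 173 RPM. Male cortex vehicle libraries held 3.89, 4.62 and 7.77 RPM, so it was replicates 2 and 3 that differed from the males. Nes with vehicle was 1120 RPM in replicate 1, 581 and 670 RPM in replicates 2 and 3, and 1030 to 1140 RPM in male cortex.

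Focal adhesions assemble on integrins, transmembrane receptors for the matrix. Talin (Tln1) binds the integrin tail and pulls in vinculin (Vcl), and the adaptor paxillin (Pxn) and the kinases FAK (Ptk2) and Src signal from the site. Zyxin (Zyx) collects at adhesions under tension. Kank1 binds talin at the rim of adhesions and links them to cortical microtubule complexes. Ptk2b encodes Pyk2, a calcium-responsive relative of FAK. Fam107a, also called DRR1, encodes an actin-binding protein known as a stress- and glucocorticoid-induced gene in brain. Dexamethasone acts through the glucocorticoid receptor, a DNA-binding nuclear receptor.

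In GRCm38, Fam107a lies on chromosome 14 (8296274 to 8318023, minus strand) and Fam107b on chromosome 2 (3570488 to 3782142, plus strand). Ptk2b lies on chromosome 14 (66153257 to 66281052, minus strand), Ptk2 on chromosome 15 (73205102 to 73423280, minus strand) and Kank1 on chromosome 19 (25236975 to 25434496, plus strand). Pxn is on chromosome 5 (115506676 to 115555987, plus strand), Vcl on chromosome 14 (20929398 to 21033676, plus strand) and Zyx on chromosome 6 (42349630 to 42360213, plus strand). Src is on chromosome 2 (157418444 to 157471862, plus strand) and Tln1 on chromosome 4 (43531519 to 43562691, minus strand). All are annotated as protein-coding.

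Start-site windows from RefSeq (GRCm38.p6, 250 bases before to 50 after a start) were at hand for 7 of the 10 genes, 9 windows in all; Ptk2b, Ptk2 and Pxn are named only. Both strands were searched for 2 motifs, and the DNA sites of the glucocorticoid receptor were not searched here. The AP-1 motif TGACTCA was in 1709 of 32851 windows of all genes in the table (5.2%), with Fam107b and Zyx among them. The CArG box, the site of serum response factor, was in 535 (1.63%), with Vcl among them. Neither motif was found in the windows of Fam107a, Src, Tln1 and Kank1. The 3 windows below are shown because they belong to genes that were lower with dexamethasone in male cortex and because a motif matched. The windows run 5′ to 3′ on the gene's strand, and capitals mark the match, which starts at position -121 from the start site in Zyx, -36 in Fam107b and -227 in Vcl.
Zyx, chr6:42349578-42349877, plus strand: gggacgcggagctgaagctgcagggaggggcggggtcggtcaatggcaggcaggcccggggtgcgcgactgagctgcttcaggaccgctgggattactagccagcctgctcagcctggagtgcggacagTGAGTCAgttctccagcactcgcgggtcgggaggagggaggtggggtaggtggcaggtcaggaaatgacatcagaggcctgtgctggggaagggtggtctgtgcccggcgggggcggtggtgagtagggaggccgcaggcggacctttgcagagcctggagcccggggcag
Fam107b, chr2:3713208-3713507, plus strand: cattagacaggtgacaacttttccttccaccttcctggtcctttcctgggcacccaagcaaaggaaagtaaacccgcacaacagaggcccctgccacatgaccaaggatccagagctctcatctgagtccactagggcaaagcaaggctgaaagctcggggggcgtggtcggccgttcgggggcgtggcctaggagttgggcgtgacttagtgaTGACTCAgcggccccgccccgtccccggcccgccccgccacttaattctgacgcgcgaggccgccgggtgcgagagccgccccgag
Vcl, chr14:20929148-20929447, plus strand: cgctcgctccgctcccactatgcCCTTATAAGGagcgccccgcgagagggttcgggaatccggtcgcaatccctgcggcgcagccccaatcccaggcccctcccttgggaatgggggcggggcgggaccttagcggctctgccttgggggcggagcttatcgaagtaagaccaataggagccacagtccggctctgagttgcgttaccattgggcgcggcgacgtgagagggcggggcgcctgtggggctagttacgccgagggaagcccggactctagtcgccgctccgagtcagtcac
A match is a description of letters and not of binding, which was not measured.

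Fam107a was almost silent with vehicle and among the more abundant of the 10 genes with dexamethasone. Values below are the deposited signal, in RPM of a scaled library size, for replicates 1, 2 and 3. Female cortex libraries held 0.312, 0.0537 and 0.676 RPM with vehicle and 141, 173 and 111 RPM with dexamethasone. In male cortex it was 0.329, 0.282 and 0.264 RPM, then 120, 127 and 130 RPM. The lowest treated library was over 100 RPM above the highest vehicle library in both. In female hypothalamus Fam107a was 0.134, 0.0925 and 0.121 RPM with vehicle and 96.9, 65.7 and 59.7 RPM with dexamethasone. In male hypothalamus it was 0.217, 0.138 and 0.587 RPM, then 87.9, 58.9 and 48.4 RPM. No vehicle library overlapped a treated one in any of the 4 sets.

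On the log2(RPM + 1) scale the change of Fam107a was 6.73 ± 0.24 (SE, n = 3 against 3) in female cortex and 6.62 ± 0.08 in male cortex. It was 6.04 ± 0.19 in female hypothalamus and 5.62 ± 0.24 in male hypothalamus. Adding 1 RPM shrinks the change of a gene this low in vehicle. The group means without it stood in ratios of 408, 431, 641 and 207 in the same order. These ratios rest on 19, 16, 8 and 22 vehicle reads summed over the 3 libraries of each group, so the differences between them are poorly fixed. The authors' deposited table gives log2 fold changes of 8.66, 8.72, 9.25 and 7.60 in that order. With dexamethasone, scaled over all 24 libraries, Fam107a was at 115 ± 25.8 RPM (SD, n = 3) in female cortex, 102 ± 4.18 in male cortex, 92.5 ± 26.1 in female hypothalamus and 81.6 ± 25.6 in male hypothalamus. Each neighbour in that order differed by less than the larger of the 2 SDs, although the gaps on either side of male cortex exceeded its own SD.

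Ptk2b, the Pyk2 gene, also started near zero, but less so in hypothalamus. In female cortex it was 0.104, 0.484 and 1.30 RPM with vehicle and 44.5, 37.1 and 32.2 RPM with dexamethasone. In male cortex it was 0.384, 0.62 and 1.64 RPM, then 23.9, 33.8 and 47.1 RPM. Cortex vehicle libraries thus varied over 10-fold among themselves, at 2 to 31 reads each, while all treated libraries were high. In female hypothalamus it was 1.83, 2.91 and 2.54 RPM with vehicle and 38.7, 29.7 and 36 RPM with dexamethasone. In male hypothalamus it was 2.66, 4.92 and 0.979 RPM, then 45.3, 32.4 and 17.8 RPM. Every treated library was above every vehicle library. Levels between regions are compared below, on 1 scaling over all 24 libraries.

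The log2 change of Ptk2b was 4.63 ± 0.29 (SE) in female cortex, 4.26 ± 0.26 in male cortex, 3.39 ± 0.17 in female hypothalamus and 3.13 ± 0.46 in male hypothalamus. The group means stood in ratios of 60.5, 39.7, 14.3 and 11.1. The estimate for hypothalamus minus cortex was -0.92 ± 0.37, given without a test. The vehicle level of Ptk2b, scaled over all 24 libraries, ran from 0.0853 to 1.34 RPM in cortex (median 0.442, n = 6) and from 1.24 to 6.03 RPM in hypothalamus (median 3.24). With dexamethasone it ran from 19.3 to 37.9 RPM in cortex (median 28.8) and from 22.1 to 56.6 RPM in hypothalamus (median 43.2).

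Kank1 was already well expressed with vehicle and several-fold higher with dexamethasone. In female cortex it was 9.55, 27.7 and 25.1 RPM with vehicle and 78.6, 80.8 and 79.6 RPM with dexamethasone. In male cortex it was 10.4, 11.4 and 10.8 RPM, then 69.3, 91.1 and 121 RPM. The vehicle library of female cortex replicate 1, which stood apart above, matched the male cortex level. In female hypothalamus Kank1 was 18.2, 18.4 and 15.2 RPM with vehicle and 68.4, 33.7 and 62.8 RPM with dexamethasone. In male hypothalamus it was 12.4, 8.78 and 7.05 RPM, then 62.9, 25.7 and 19.4 RPM. The treated libraries of hypothalamus were spread over more than 3-fold in males. The log2 change was 2.02 ± 0.38 (SE) in female cortex, 2.96 ± 0.16 in male cortex, 1.56 ± 0.25 in female hypothalamus and 1.68 ± 0.42 in male hypothalamus, with no overlap between groups in any of them. The ratios of group means were 3.84, 8.59, 3.18 and 3.82.

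**Figure D1:**
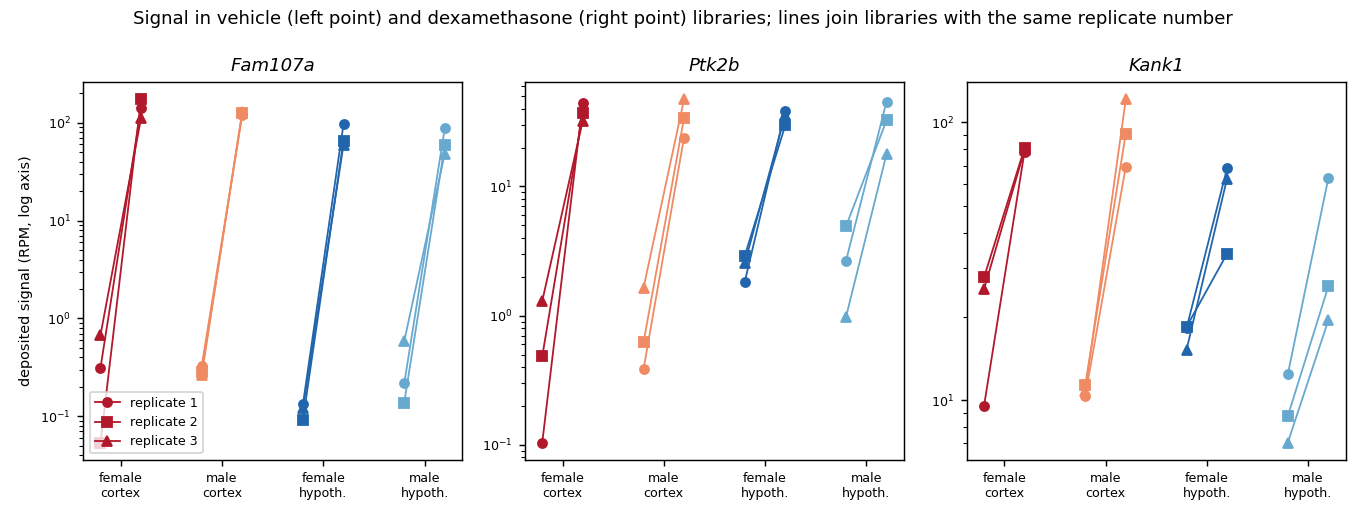
Deposited signal (RPM, log axis) of Fam107a, Ptk2b and Kank1 in each library; the left point of a pair is vehicle, the right point dexamethasone, and lines join the same replicate number. Fam107a goes from at most 0.676 RPM to at least 48.4 RPM, and Kank1 in female cortex starts at 9.55 RPM in replicate 1 but at 27.7 and 25.1 RPM in replicates 2 and 3.

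Across the 24 libraries, the 5 genes of 13913 whose log2 levels followed Fam107a most closely were Hif3a (Pearson r = 0.992), Klf9 (0.99), Zbtb16 (0.989), Fkbp5 (0.985) and Tekt4 (0.977). Fkbp5 encodes a chaperone partner of the glucocorticoid receptor, and Klf9 and Zbtb16 encode zinc-finger transcription factors. For Ptk2b they were Zhx3 (0.97), the phagocytic receptor kinase Mertk (0.968), Fkbp5 (0.964), Phf15 (0.963) and the PI3-kinase regulatory subunit Pik3r1 (0.953). For Kank1 they were Fbxo18 (0.948), Paqr8 (0.945), Pip4k2a (0.937), Hsd17b4 (0.933) and Tekt4 (0.929). Among the members, r with Fam107a was 0.942 for Ptk2b, 0.886 for Kank1 and -0.728 for Zyx. With Ptk2 and Src it was 0.0485 and 0.0769. These values describe likeness over libraries that share treatment, region and preparation.

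The members chosen by function moved less than Fam107a, Ptk2b and Kank1, a contrast that follows from picking those genes for their rise. Of the 7, 6 changed in male cortex: Ptk2 and Src rose, and Zyx, Pxn, Vcl and Fam107b fell (limma, adjusted p under 0.05 over all genes tested). In male cortex 26.7% of all genes were called higher and 20.9% lower, so a call there is common. Markers of other cell types also moved in that comparison: 6 of 7 astrocyte markers were called higher (summed level 444 to 510 RPM with vehicle and 684 to 903 RPM with dexamethasone), 4 of 4 tested endothelial markers lower (6.7 to 7.73, then 3.23 to 3.96 RPM) and 2 of 4 tested contractile and mesenchymal markers lower (11 to 11.8, then 6.57 to 8.53 RPM). In female cortex the astrocyte sum also rose in each replicate number (305 to 607, 1430 to 2250 and 1010 to 1450 RPM), though no astrocyte marker was called. The endothelial sum fell there (4.36 to 6.7, then 3 to 3.63 RPM), as did the contractile and mesenchymal sum (8.91 to 9.81, then 5.04 to 7.98 RPM). In hypothalamus the astrocyte sum rose in every replicate number but female 2 (1070 to 942 RPM). The part of these markers in the members' changes was not tested. None of the 7 passed in female cortex (1.4% of all genes called higher, 3.02% lower), female hypothalamus (0.793% and 0.048%) or male hypothalamus (0.226% and 0%), and 2, 1 and 0 of them were at an unadjusted p under 0.05, a level reached by 21.4%, 8.91% and 7.74% of all genes. Same-numbered vehicle and dexamethasone libraries deviated together in those 3 sets, and with the replicate number as a block 3 members fell in female cortex (38.1% of all genes called), none changed in female hypothalamus (7.14%) and 3 fell in male hypothalamus (13.1%).

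Zyx, the zyxin gene, fell the most of the 7 in male cortex. In female cortex it was 81.6, 37.1 and 38.2 RPM with vehicle and 24.5, 16.7 and 20.4 RPM with dexamethasone. In male cortex it was 70.4, 64.8 and 63.9 RPM, then 27.9, 25.7 and 26.9 RPM. The groups did not overlap in either, and only replicate 1 of female cortex had a vehicle level like that of males. In female hypothalamus Zyx was 28.5, 24.4 and 32.1 RPM with vehicle and 21, 22.5 and 24.2 RPM with dexamethasone. In male hypothalamus it was 30.1, 36.7 and 53.1 RPM, then 19.8, 23.6 and 37.5 RPM. Each hypothalamic replicate number was lower with dexamethasone, but the male groups overlapped.

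The log2 change of Zyx was -1.28 ± 0.06 (SE) in male cortex, with an adjusted p of 3.62e-07 (limma). In female cortex it was -1.22 ± 0.33, which did not pass (adjusted p = 0.0974) and passed with the replicate block (adjusted p = 0.000487). The change in male hypothalamus was -0.56 ± 0.28 (adjusted p = 0.691) and likewise passed with the block (adjusted p = 0.000663). In female hypothalamus it was -0.31 ± 0.13 (adjusted p = 0.545; with the block 0.0868). The authors' deposited table gives Zyx adjusted p-values of 6.83e-06 in female cortex and 1.10e-05 in male cortex, the only calls it makes among the 7. Of all 38917 genes it calls 697 higher and 1375 lower in female cortex, and 805 higher and 1525 lower in male cortex. Without female cortex replicate 1, which had the highest vehicle level, the change there was -0.99 ± 0.13 (adjusted p = 0.00866).

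Pxn, the paxillin gene, was lower with dexamethasone in each cortex replicate number and showed no such shift in hypothalamus. In male cortex it was 53.2, 47.5 and 54.1 RPM with vehicle and 37.4, 37.9 and 34.4 RPM with dexamethasone, with no overlap. The female cortex values were 55.9, 76.2 and 63.4 RPM, then 37.6, 58.5 and 48.6 RPM, lower in each replicate number but with overlapping groups. In hypothalamus the 12 libraries lay between 19 and 32.6 RPM, and the treated and vehicle groups overlapped in both sexes. The log2 change was -0.48 ± 0.07 in male cortex (limma, adjusted p = 0.000387) and -0.44 ± 0.19 in female cortex (adjusted p = 0.262; with the replicate block 0.00235). It was 0.10 ± 0.13 in female hypothalamus and 0.11 ± 0.21 in male hypothalamus (adjusted p = 0.846 and 0.931).

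Fam107b, the relative of Fam107a that encodes a similar small protein, moved the other way from Fam107a. In male cortex it was 51, 55.8 and 51.6 RPM with vehicle and 42.3, 41.1 and 42.6 RPM with dexamethasone. Female cortex replicates were at 54.9, 46.2 and 49.5 RPM, then 42.9, 37.1 and 42.2 RPM. The groups did not overlap in either. The log2 change was -0.32 ± 0.06 in male cortex (limma, adjusted p = 0.00157) and -0.29 ± 0.11 in female cortex (adjusted p = 0.202; with the replicate block 0.0121). In male hypothalamus it was -0.35 ± 0.17 (adjusted p = 0.679; with the block 0.0342) and in female hypothalamus -0.27 ± 0.12 (adjusted p = 0.586; with the block 0.146). In all 12 replicate numbers Fam107b was lower with dexamethasone, although in female hypothalamus replicate 2 only from 34.8 to 34.7 RPM.

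Among the remaining members, Vcl was at 99 ± 4.22 RPM with vehicle and 78.5 ± 4.41 RPM with dexamethasone in male cortex (SD, n = 3), and it fell by 0.33 ± 0.06 on the log2 scale (limma, adjusted p = 0.00128). In the other 3 sets its change lay between -0.22 and -0.13 and did not pass. Female cortex replicate 1 had 115 RPM of Vcl with vehicle, against 63.1 and 56.3 RPM in replicates 2 and 3. Src rose in male cortex from 118 ± 7.34 to 138 ± 7.65 RPM, by 0.22 ± 0.06 (adjusted p = 0.015). In female cortex Src went from 111 to 128 RPM in replicate 1, and from 138 to 95 and from 142 to 107 RPM in replicates 2 and 3, so the direction differed between libraries of 1 group. The male call for Src had an adjusted p of 0.0536 with edgeR and 0.0512 with DESeq2, and 0.0991 without male cortex replicate 2.

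Ptk2, the FAK gene, rose in male cortex from 160 ± 4.79 to 176 ± 3.89 RPM, by 0.14 ± 0.05 (limma, adjusted p = 0.0372). That call was lost with edgeR (adjusted p = 0.178) and DESeq2 (0.238), without replicate 1 (0.149) and without replicate 3 (0.258). In the other 3 sets its estimates lay between -0.07 and 0.08. Tln1 stayed within its spread in both cortex sets, with changes of 0.03 ± 0.16 and 0.07 ± 0.07. In hypothalamus its estimates were -0.15 ± 0.18 in females and -0.33 ± 0.18 in males, and the male value passed with the replicate block (adjusted p = 0.0168; without it 0.72). The treated mean of Ptk2b, which was picked for its rise, was 11.1 to 60.5 times its vehicle mean, and that of Ptk2 0.948 to 1.1 times.

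**Figure D2:**
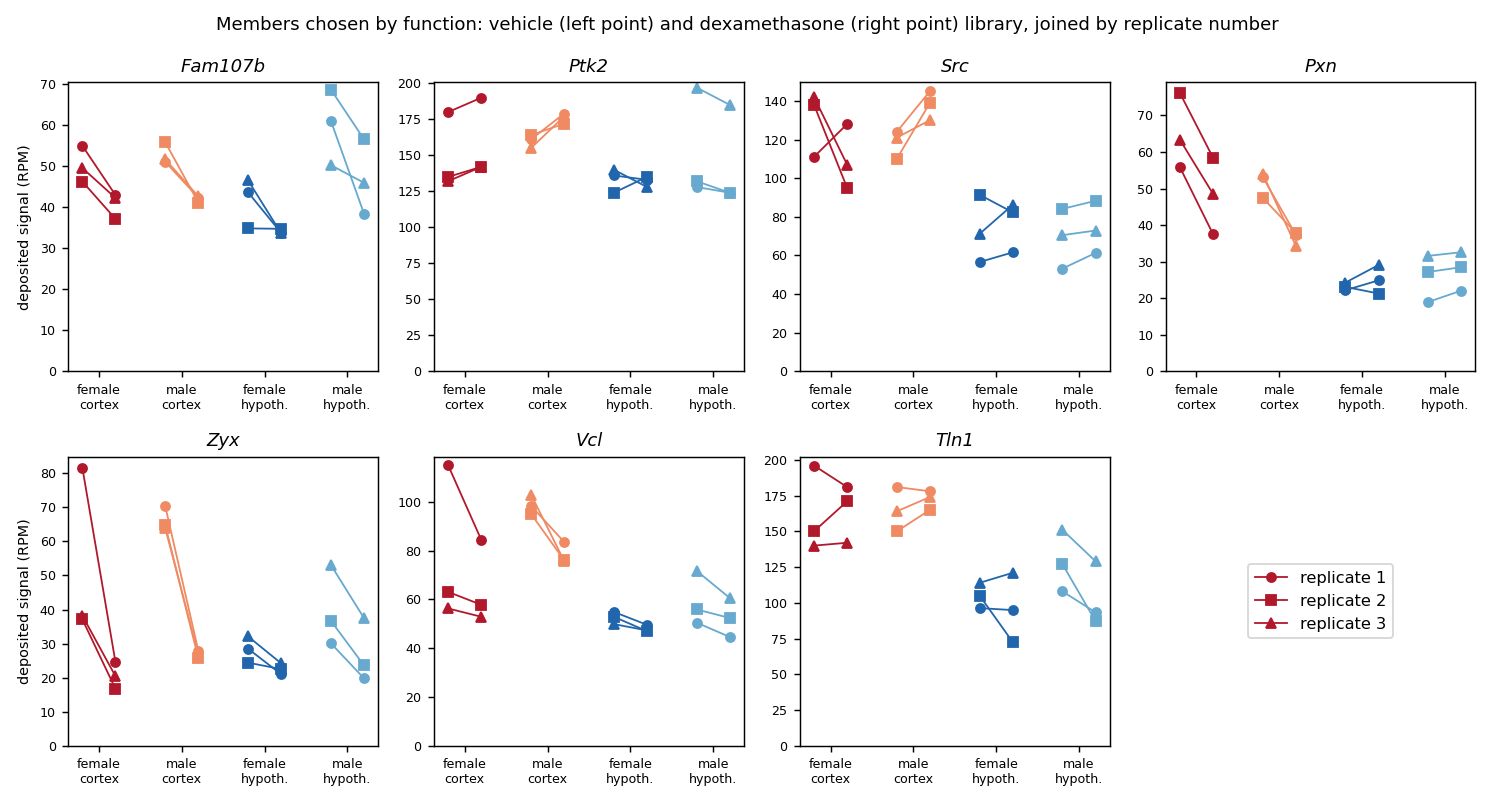
Deposited signal (RPM, axes from 0) of the 7 members chosen by function; the left point of a pair is vehicle, the right point dexamethasone, and lines join the same replicate number. Zyx in male cortex falls from between 63.9 and 70.4 RPM to between 25.7 and 27.9 RPM, while Tln1 lines run both ways.

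**Figure D3:**
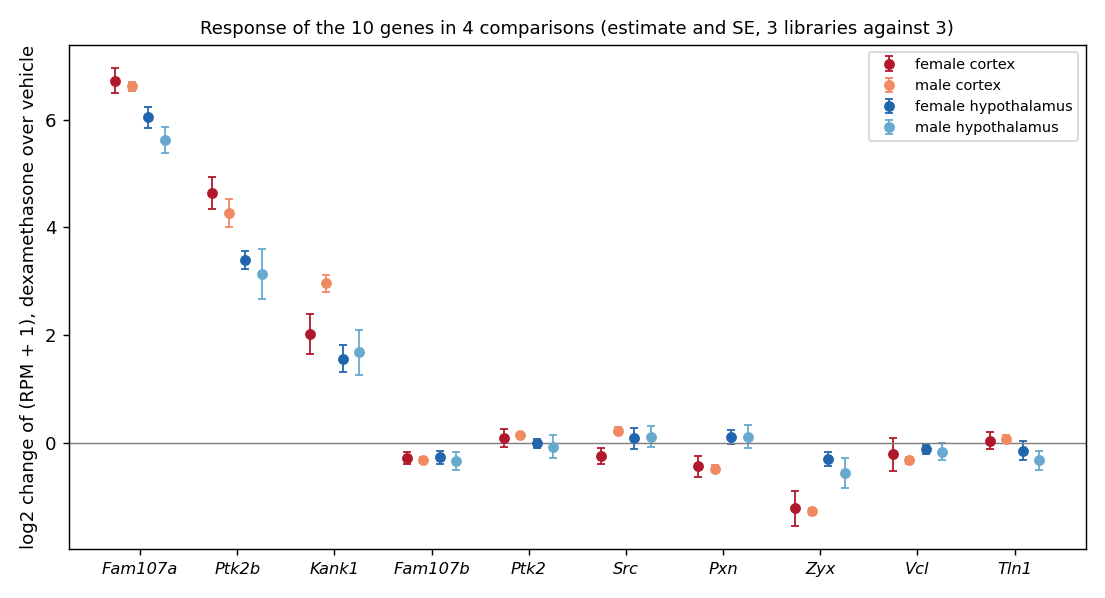
Log2 change of (RPM + 1) with dexamethasone for the 10 genes in the 4 comparisons (points, limma estimate; bars, SE; 3 libraries against 3). Fam107a lies between 5.62 and 6.73 and Zyx between -1.28 and -0.31.

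Whether the response differed between regions was tested as an interaction over all 24 libraries, in which 7.3% of 13932 genes were called with a higher and 6.65% with a lower response in hypothalamus. Pxn was the 1 of the 7 called, with a response 0.55 ± 0.18 (SE, log2) higher in hypothalamus (limma, adjusted p = 0.0451). That call is close to the threshold: it was lost without female cortex replicate 1 (adjusted p = 0.0553), without male hypothalamus replicate 2 (0.0887), with any replicate number left out (0.0994 to 0.255), without the filter (0.0699) and with TMM without ribosomal-like genes (0.0564). Zyx differed by 0.79 ± 0.26 in the same direction (adjusted p = 0.0516), and passed without female cortex replicate 1 (0.67 ± 0.20, adjusted p = 0.0344). The other 5 lay between -0.30 and 0.12, none past the threshold. With the replicate block 4 of the 7 passed, where 38.9% of all genes did: Pxn (adjusted p = 0.000204) and Zyx (8.41e-05) with a higher response in hypothalamus, and Ptk2 (-0.17 ± 0.05, adjusted p = 0.0195) and Tln1 (-0.30 ± 0.10, adjusted p = 0.0313) with a lower one. That block also joined same-numbered male cortex libraries, whose deviations correlated at 0.362, 0.0208 and 0.391 and which were not taken as pairs. For the genes chosen on their response, the difference is given as a description: -0.35 ± 0.22 for Fam107a and -0.85 ± 0.37 for Kank1.

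Whether the sexes responded differently was tested the same way within a region. In cortex 0% of 13680 genes passed and 169 were at an unadjusted p under 0.05; in hypothalamus 0% of 12843 passed and 33 were at that level. For the 7 members the difference, male minus female, ran from -0.15 (Vcl) to 0.43 (Src) in cortex, with SEs of 0.14 to 0.38, and 1 of them was at an unadjusted p under 0.05. In hypothalamus it ran from -0.25 (Zyx) to 0.02 (Src), with SEs of 0.19 to 0.33, and 0 were. edgeR and DESeq2 on the recovered reads also called 0 genes in both regions. Without female cortex replicate 1, the female replicate with Gfap like that of the males, 84 of 13812 genes were called in cortex.

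Before treatment, 3 of the 7 differed between regions, where 28.3% of all genes were called higher and 28% lower in hypothalamus (limma, 12 vehicle libraries). Fam107b was higher by 0.57 ± 0.11 (adjusted p = 0.000639), at 43.8 to 84.1 RPM (median 61.1) against 36.2 to 45.4 RPM (median 41.7) in cortex, on 1 scaling over 24 libraries. Ptk2 was higher by 0.51 ± 0.12 (adjusted p = 0.00262), at 157 to 249 RPM (median 166) against 104 to 148 RPM (median 128). Pxn was lower by 0.60 in hypothalamus (log2 difference -0.60 ± 0.13, adjusted p = 0.00151), at 23.5 to 40 RPM (median 29.9) against 38.6 to 59.7 RPM (median 45). Vcl, Zyx, Src and Tln1 lay between -0.19 and 0.15 and did not pass. Ptk2b was 1.38 ± 0.26 higher and Kank1 0.41 ± 0.21 higher, both untested, and Fam107a was below the filter.

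Counting of overlapping genes moved with region as well. The library kit was stranded, and the sources used here do not give the strand setting of the counting. Of 135 genes with at least 50% of their exon bases under exons on the opposite strand, 22.2% were more than 2 log2 units lower in hypothalamus, against 0.745% of 8324 genes with no such base. More than 2 log2 units higher there were 4.44% of the former and 0.553% of the latter. Ilk, the integrin-linked kinase, shares 2106 of 2744 exon bases with Taf10 on the opposite strand, and was at 87.9 to 113 RPM in cortex but at 0.113 to 0.763 RPM in hypothalamus. Its level is therefore uncertain. Of the members, Vcl has 2090 of 8191 exon bases under Ap3m1, Tln1 360 of 9801 under Creb3 and Zyx 236 of 5390 under Epha1, so their levels between regions are less certain. The other 7 members have none.

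Per kilobase of exon, the only scale on which levels of different genes are compared here, Src was the highest of the 10 with vehicle (means of 19.7 to 23.8 RPM per kb) and Fam107a among the lowest (0.0377 to 0.102). With dexamethasone the Fam107a means were 29.8 and 26.3 RPM per kb in female and male cortex, beside 20.5 and 25.5 for Src, a gap larger than both SDs in females (6.67 and 3.36) and smaller than both in males. In hypothalamus they were 23.9 and 21.1, beside 21.8 and 21.3 for Src, differences smaller than the SDs. Ptk2b reached 3.81 to 5.88 RPM per kb, still below Ptk2 at 10.9 to 15.3. Kank1 with dexamethasone was at 7.32 to 12.3 RPM per kb.

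**Figure D4:**
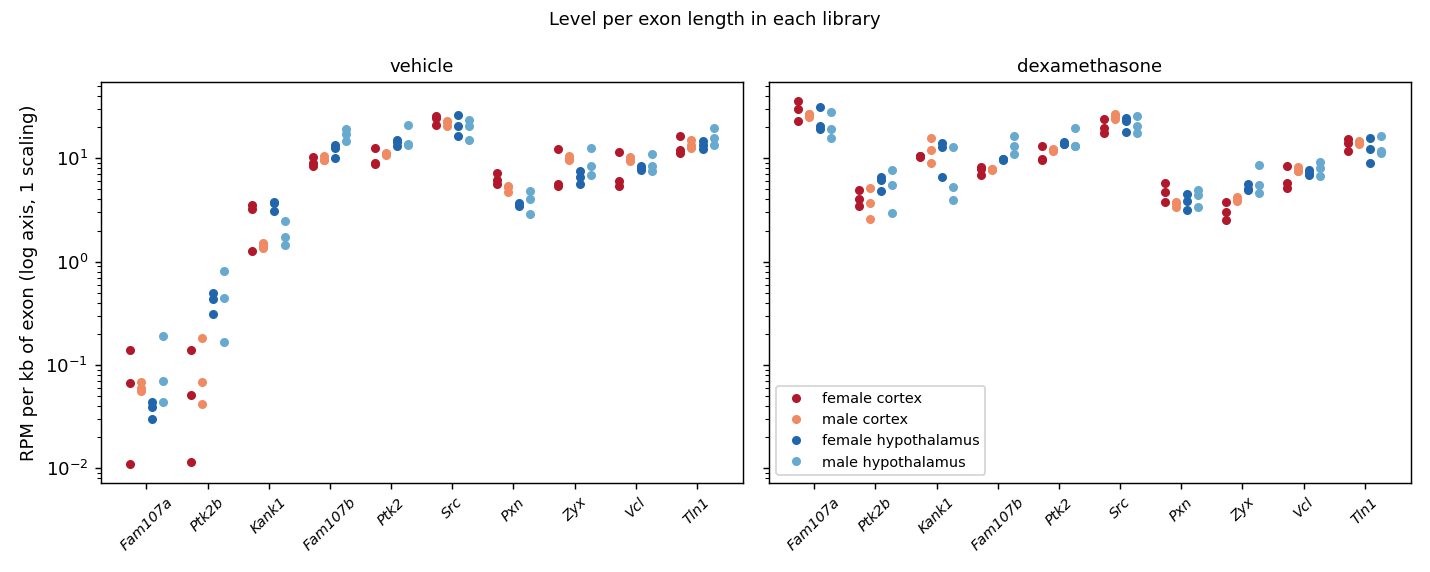
RPM per kb of exon (log axis, 1 scaling over 24 libraries) of the 10 genes in each library with vehicle (left) and dexamethasone (right); colours mark region and sex. Fam107a means move from 0.0377 to 0.102 RPM per kb with vehicle to 21.1 to 29.8 with dexamethasone, where Src means are 20.5 to 25.5.

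The wider adhesion machinery was described with 5 lists holding 117 genes besides Fam107a, Ptk2b and Kank1. In male cortex 65 of 110 measured genes passed, 32 higher and 33 lower, where 47.6% of all genes passed (median log2 change -0.01, against 0.04 over all genes). In female cortex 9 of 109 passed, 3 higher and 6 lower, against 4.42% of all genes (medians -0.03 and 0.02). With the replicate block 53 passed there, against 38.1% of all genes. In female hypothalamus 3 of 108 passed, all higher, against 0.841% of all genes (medians -0.07 and 0.01), and 19 with the block, against 7.14%. In male hypothalamus 0 of 106 passed, against 0.226% of all genes, and 33 with the block, against 13.1%. Female cortex counts turned on the libraries: 25 without replicate 1 and 0 without replicate 2 or without replicate 3. Those of all genes did too: 1645 of 13387 were called without replicate 1, 2 of 13374 without replicate 2 and 0 of 13417 without replicate 3.

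In male cortex, where 26.7% of all genes were called higher and 20.9% lower, counts of the lists below are descriptions and several lie near those shares. Of 12 integrin subunits 4 were higher and 2 lower. Itga9 (1.02 ± 0.14) and Itgb5 (0.59 ± 0.06) rose, and the fibronectin receptor subunit Itga5 (-1.36 ± 0.12) and the laminin receptor subunit Itga7 (-0.60 ± 0.10) fell (limma, adjusted p at most 0.00109). Among integrin linkers 9 of 21 rose and 4 fell. The tensin genes Tns3 (0.97 ± 0.10) and Tenc1 (0.75 ± 0.21) rose, and the actin polymerase Vasp (-0.57 ± 0.06) and the crosslinker Actn1 (-0.36 ± 0.07) fell. No integrin subunit or linker passed in the other 3 sets without the block.

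Signalling adaptors held the largest rises. Nedd9, a scaffold phosphorylated by FAK and Src, rose by 1.91 ± 0.08 in male cortex and by 2.23 ± 0.22 in female hypothalamus (limma, adjusted p = 9.12e-08 and 0.00794). It was 1.78 ± 0.36 in female cortex and 2.09 ± 0.28 in male hypothalamus, just short of the threshold (adjusted p = 0.0516 and 0.0539) and past it with the block (1.97e-05 and 6.83e-07). Elmo1, a partner of the Rac activator Dock1, rose in female cortex (1.24 ± 0.14, adjusted p = 0.0129) and male cortex (1.56 ± 0.09). Lpp, a zyxin relative, rose in female cortex (0.94 ± 0.13), while Trip6, another zyxin relative, fell in female cortex (-0.89 ± 0.14) and male cortex (-0.65 ± 0.21). Of 29 measured genes of this list 11 rose and 7 fell in male cortex.

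In the KANK and cortical complex list, 5 of 11 rose and 3 fell in male cortex. The kinesin Kif21a (0.68 ± 0.12) and the microtubule plus-end gene Clasp2 (0.51 ± 0.05) rose there. The Kank1 relatives Kank3 (-0.82 ± 0.10) and Kank2 (-0.69 ± 0.10) fell. Kank3 also fell in female cortex (-0.92 ± 0.14, adjusted p = 0.032). In female cortex replicates 1, 2 and 3 it was at 11, 12.3 and 12.5 RPM with vehicle and 6.71, 5.39 and 5.48 RPM with dexamethasone.

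Cyr61, a matrix protein gene responsive to YAP and serum response factor, fell by 3.03 on the log2 scale in male cortex, with replicates at 64.8, 82 and 67.8 RPM and then 7.55, 8.56 and 7.47 RPM. Its female cortex values were 82.7, 39.8 and 29.8 RPM, then 7.46, 12.2 and 11.6 RPM (log2 change -2.07 ± 0.39, adjusted p = 0.0454). Rnd1 (-1.49 ± 0.11) and Rnd3 (-1.63 ± 0.07) fell in male cortex, and Rnd1 also in female cortex (-1.19 ± 0.15). Limd1 (0.60 ± 0.07) and Amotl2 (0.48 ± 0.11) rose in male cortex. In female hypothalamus Ctgf, a relative of Cyr61, rose by 1.54 ± 0.16 (limma, adjusted p = 0.00901).

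The response differed between regions for 18 of 110 listed genes, 8 higher and 10 lower in hypothalamus, where 7.3% and 6.65% of all genes were. With the replicate block 55 of the 110 passed, against 38.9% of all genes, in a fit that also joined male cortex numbers not taken as pairs. Ctgf stood apart by 2.15 ± 0.34 (limma, adjusted p = 0.000289): it fell in male cortex by 1.14 on the log2 scale and rose in female hypothalamus. In female hypothalamus replicates 1, 2 and 3 had 1.02, 0.74 and 1.05 RPM of Ctgf with vehicle and 5.46, 4.49 and 3.99 RPM with dexamethasone. Cyr61 differed by 2.13 ± 0.33 (adjusted p = 0.000215). In hypothalamus it went from 13 ± 3.17 to 9.04 ± 0.36 RPM in females and from 14.1 ± 6.87 to 10.6 ± 2.71 RPM in males, neither past the threshold. Cyr61 was already lower with vehicle in hypothalamus than in cortex, by -1.47 ± 0.28 (adjusted p = 0.000747). Rhob differed by 1.38 ± 0.26 and Rnd1 by 1.18 ± 0.16. Elmo1 (-0.53 ± 0.16), Lpp (-0.67 ± 0.17) and Itga9 (-0.73 ± 0.19) had the smaller response in hypothalamus, and Nedd9 did not pass (0.33 ± 0.29, adjusted p = 0.526).

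**Figure D5:**
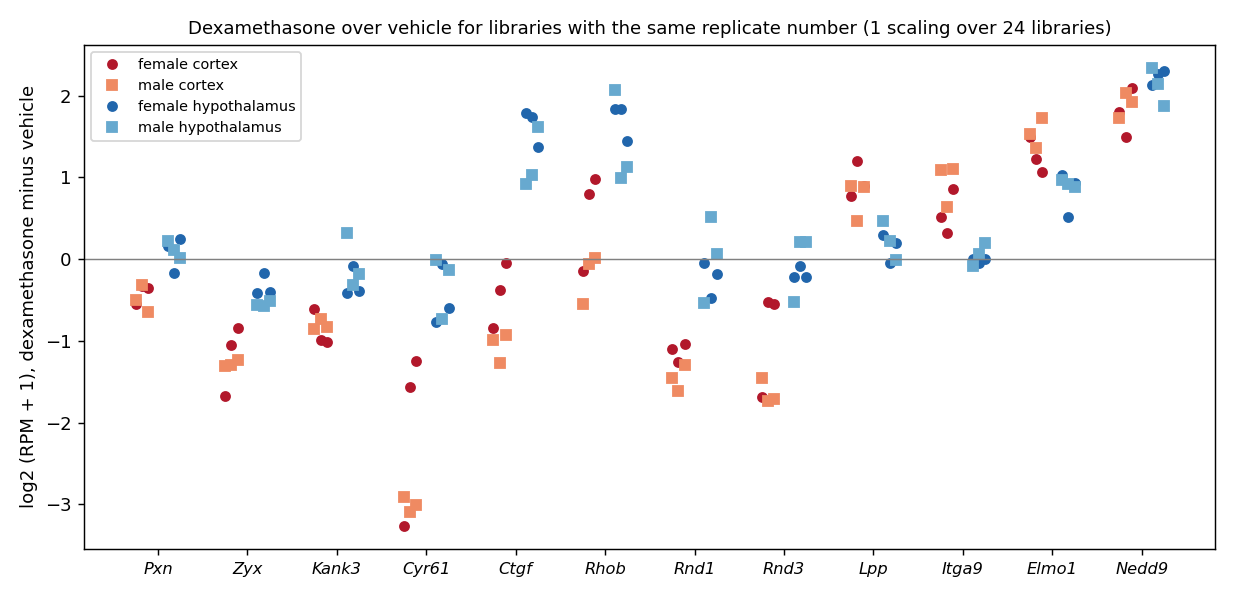
Log2 (RPM + 1) of dexamethasone minus vehicle for libraries with the same replicate number, for 12 genes; circles are female, squares male, reds cortex and blues hypothalamus. Ctgf and Rhob lie above 0 in the 6 hypothalamus pairs, while the cortex points of Cyr61 and Rnd1 all lie at -1 or below.

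With vehicle, 58 of 109 listed genes differed between regions, 42 higher and 16 lower in hypothalamus, where 56.3% of all genes differed, 28.3% higher and 28% lower (median 0.13, against 0.01 over all genes). Integrin subunits were mostly higher (7 of 12, 1 lower), led by Itga9 (1.75 ± 0.15) and Itga5 (1.39 ± 0.25), with Itga2 lower (-0.83 ± 0.18). The myosin light chain Myl9 (1.57 ± 0.16), the calponin Cnn2 (1.14 ± 0.14), the paxillin relative Tgfb1i1 (1.78 ± 0.25) and the parvin Parvb (1.59 ± 0.36) were higher. Lpp (1.32 ± 0.11), Parva (0.62 ± 0.08), Kank4 (0.63 ± 0.17) and Ppfibp1 (0.60 ± 0.08) were higher, and Rnd1 (-1.61 ± 0.13), Efs (-1.48 ± 0.23), Evl (-0.93 ± 0.09), Nedd9 (-0.73 ± 0.19) and Kank3 (-0.53 ± 0.10) were lower. The 12 contractile and mesenchymal markers summed to 8.91 to 11.8 RPM in cortex vehicle libraries and 35.7 to 96.4 RPM in hypothalamus. Of these Acta2 and Tagln carried the rise, reaching 78.1 and 14.2 RPM in hypothalamus. Col1a1 was lower there (0.537 to 1.35 RPM, against 1.41 to 3.87 RPM in female and 1.42 to 2 RPM in male cortex), as was Pdgfrb, at no more than 0.201 RPM against at least 0.321 RPM in cortex. Of the 4 tested markers of this list 2 were called higher and 1 lower. Lum and Dcn were at 0 in hypothalamus vehicle libraries and at most 0.0432 RPM in those of cortex. The 9 endothelial markers summed to 4.36 to 7.73 RPM in cortex and 7.75 to 32.3 RPM in hypothalamus. Of the 3 of these markers that were tested, 1 was called higher and 1 lower in hypothalamus. Their part in the result was not tested, and fewer cells of a type cannot be told apart from less RNA per cell.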

How the data were processed

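The authors sequenced 24 libraries and deposited 1 table for each region and sex with a normalised signal per gene, which is a read count divided by a scaled library size and is called RPM here. TopHat2 (2.0.13 and 2.0.9), HTSeq and GRCm38 are named per the submitters' processing notes. The authors also deposited log2 fold changes and p-values, made with edgeR per the file headers. Whole reads could be recovered for 100% of values within 0.01 of a whole number. No column of per-sample values was left unused (0 columns).

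Treatment was tested within each table with limma 3.58.1 (R 4.3.3, trend) on log2(RPM + 1), on genes that reached 1 RPM in 3 or more libraries, two-sided, with Benjamini-Hochberg adjustment over all genes and a threshold of 0.05. Comparisons across tables used the recovered reads scaled by TMM over the libraries in the fit. edgeR 4.0.16 on the recovered reads called 547 genes in female cortex, 6049 in male cortex, 92 in female hypothalamus and 21 in male hypothalamus; DESeq2 1.42.0 was an alternative, as were a pseudocount of 0.5, no filter, TMM without ribosomal-like genes, a replicate block and leaving out replicates.

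Same-numbered vehicle and dexamethasone libraries were taken as paired where their deviations from the group means correlated above 0.1 in every pair. The main fits held no term for the replicate number, so their p-values do not use this pairing. It entered only in the alternative fits with the replicate block. The correlations were 0.872, 0.824 and 0.494 in female cortex, 0.736, 0.607 and 0.752 in female hypothalamus and 0.765, 0.655 and 0.751 in male hypothalamus. In female cortex, vehicle 2 with dexamethasone 3 also reached 0.492 and vehicle 3 with dexamethasone 2 reached 0.459, near the 0.494 of replicate 3. In male cortex the same-numbered correlations were 0.362, 0.0208 and 0.391, so those numbers were not taken as pairs.

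The members and gene lists were chosen with earlier results of these data known. Named besides the members are, per list, the 2 largest rises and falls among genes passing in each treatment comparison and between regions with vehicle, and the 5 genes closest to each of Fam107a, Ptk2b and Kank1. The counts of 1 of the 5 lists are not reported here. Genes named in a list comparison are also given where they did not pass. Exon lengths and overlaps come from GENCODE on GRCm38, and start-site windows from RefSeq. A few list genes appear in the files under an older symbol, such as Tenc1 for Tns2.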

Additional observations from a re-analysis of the deposited data

Results flagged for a closer look

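The dexamethasone response of 11 named genes differed between hypothalamus and cortex by limma's interaction test over 24 libraries. Over all 13932 genes tested, 7.3% were called with a higher and 6.65% with a lower response in hypothalamus. Cyr61, Rnd1, Rnd3, Kank3, Elmo1, Lpp and Itga9 were named for large called changes in cortex, and Ctgf and Rhob for called rises in female hypothalamus. As the libraries are the same, that choice favours a difference between regions for those genes. Values are the log2 response in hypothalamus minus that in cortex. It was higher in hypothalamus for Ctgf (2.15), Cyr61 (2.13), Rhob (1.38), Rnd1 (1.18), Rnd3 (1.17), Kank3 (0.66) and Pxn (0.55). It was lower for Itga9 (-0.73), Lpp (-0.67), Elmo1 (-0.53) and Parva (-0.35). Ctgf, Cyr61, Rhob and Rnd1 passed under every alternative run, including without female cortex replicate 1 and without male hypothalamus replicate 2. The calls of Pxn, Elmo1 and Parva were lost without male hypothalamus replicate 2 (adjusted p = 0.0887, 0.0754 and 0.074), and those of Pxn and Elmo1 also without female cortex replicate 1 (0.0553 and 0.0753). Without replicate 2 of every group the calls of Pxn, Elmo1, Kank3, Rnd3 and Parva were lost (adjusted p from 0.061 to 0.44), without replicate 3 those of these 5, Lpp and Itga9 (0.0802 to 0.293), and without replicate 1 those of Pxn and Itga9 (0.0994 and 0.104). The calls of Pxn and Elmo1 were also lost without the filter (0.0699 and 0.0579), and that of Pxn with TMM without ribosomal-like genes (0.0564). The regions differ in mt-Rnr2 content and in the counting of overlapping genes, whose part in these differences was not tested.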

How the results depend on the processing

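Counts of the 117 listed genes that passed depended on the fit in the comparisons with few calls. DESeq2 gave 18 in female cortex, 5 in female hypothalamus and 6 in male hypothalamus, against 9, 3 and 0, and no filter gave 5 in female cortex. Over all genes DESeq2 called 1732 of 13314 in female cortex and 291 of 12491 in female hypothalamus (229 higher and 62 lower). In male hypothalamus it called 242 of 12403 (169 and 73). Without the filter 411 of 24829 genes were called in female cortex. With the replicate block 53 listed genes passed in female cortex, 19 in female hypothalamus and 33 in male hypothalamus. For the difference between regions 55 passed. That fit also blocked male cortex: 11 of 12 same-numbered pairs correlated above 0.1, so the rule of every pair was not met. In male cortex, where the numbers did not pair the samples, the block gave 71 against 65, and over all genes 6868 against 6279 of 13205. It left the counts of the sex differences at 0. The vehicle comparison was not paired, because the labels do not say whether same-numbered cortex and hypothalamus libraries share an embryo or a litter. Leaving out replicates gave 0 to 25 in female cortex, 0 to 1 in female hypothalamus, 6 to 24 for the difference between regions and 0 to 4 for the sexes in cortex. Over all genes these fits called 0 of 13417 to 1645 of 13387 in female cortex and 15 of 12562 to 16 of 12580 in female hypothalamus. They called 524 of 13954 to 2187 of 14043 genes between regions, and 0 of 13710 to 84 of 13812 for the sexes in cortex. For the sexes, the 4 listed genes came without female cortex replicate 1, chosen after seeing the data, and 3 without replicate 1.

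Of the 7 tested members, 15 of 427 alternative values changed sign, all of them small and not past the threshold in either fit. Fam107b between regions was 0.01 with DESeq2 and 0.017 with edgeR, and -0.129 to 0.071 with replicates left out. Vcl with vehicle was -0.024 with DESeq2, -0.035 with edgeR, and -0.136 to 0.212 with replicates left out. Ranges with replicates left out were -0.407 to 0.157 for Zyx and -0.001 to 0.353 for Tln1 with vehicle, -0.044 to 0.107 for Tln1 in female cortex, and -0.079 to 0.046 for Ptk2, -0.014 to 0.196 for Src and -0.277 to 0.036 for Tln1 in female hypothalamus. Of the other values 377 kept direction and call, 16 lost the call and 19 gained it; the cause was not tested. Of 570 alternative values of the other named genes, 44 lost the call and 0 changed sign. For Fam107a, Ptk2b and Kank1, 41 of 173 values moved by more than the spread between replicates and 0 changed sign. At this depth 1 read is 0.0392 to 0.0632 RPM, which limits the ratios of Fam107a and Ptk2b.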
